A study of Sus scrofa with 8 samples.

Results

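The genes described here are those of the interferon response and of antigen presentation in the left ventricle of pigs after myocardial infarction. They were chosen by name: a probe set had to carry a single gene symbol that begins with SLA-, IFI, ISG, OAS, GBP, IRF, STAT or TAP (TAPT1 left out), or that is MX1, MX2, B2M, CD74, TAPBP or RSAD2. This gave 45 genes on 77 probe sets, out of 6765 named genes and 23999 probe sets tested. For the 17 genes with several probe sets, the one with the highest mean over the arrays stands for the gene, and each of the 9 annotated to B2M is also given. By role they are 16 interferon-stimulated effectors, 13 genes with IRF or STAT symbols, 8 genes of the MHC class I pathway and 8 of the MHC class II pathway. The symbol rule also took in ISG20L2, a nuclear exonuclease, and IRF2BP1, which binds IRF2, although neither is a typical interferon target or an interferon regulatory factor.

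The study asked what infusion of GGF2 (glial growth factor 2, a form of neuregulin-1 that acts on heart muscle through ERBB receptors) does to gene expression in the surviving ventricle. Muscle remote from the infarct was taken from castrated male Yorkshire pigs under 1 year old with a mean weight of 54.5 kg, all of them after infarction, and each animal gave 1 Affymetrix porcine array. Untreated animals numbered 3, 3 received GGF2 infusions of 0.67 mg/kg each (the low dose) and 2 received 2.0 mg/kg in each infusion (the high dose), over 4 weeks. No animal without an infarct is among them, so all 3 groups share the infarct.

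Interferons are secreted proteins that signal through JAK kinases to STAT factors, which enter the nucleus and switch on a large set of genes. The targets of type I interferon include antiviral effectors such as MX1, RSAD2 and ISG15. Type II interferon (interferon gamma) raises the guanylate-binding proteins and the genes of antigen presentation. In the pig the MHC genes of both classes are called SLA. MHC class I molecules pair a heavy chain with B2M and carry peptides from inside nearly every nucleated cell. MHC class II molecules carry peptides taken up from outside and are made mainly by macrophages, dendritic cells and B cells, of which the heart holds resident populations.

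Values are log2 RMA expression values, so a difference of 1 is a doubling. They ranged from 2.13 to 15.01 over all probe sets, with a median of 5.36, and a value under the lower quartile of 3.77 was taken as near background. The 8 arrays correlated with each other at 0.981 to 0.994 across probe sets. The cardiomyocyte markers, 10 of 10 measured, had a median change of 0.04 at the high dose. Their changes ran from -1.34 for NPPA (limma adjusted p = 0.559) to 0.16 for RYR2. Among markers of other cells, 6 of the 7 measured macrophage markers (10 were listed) were lower at the high dose with no overlap with untreated animals (12% of all probe sets did so), and their median change was -0.80, although none passed the test; CD14, the exception, was at 0.15. Median changes at the high dose were -0.39 for endothelial, -0.48 for fibroblast and -0.05 for T and NK cell markers. They were 0.11 for neutrophil and -0.24 for erythrocyte markers, of which 3 and 2 were measured. Immediate early genes, listed as markers of handling and not of a cell type, had a median change of 2.14. All 4 measured were higher at the high dose without overlap with untreated animals (14.7% of all probe sets did so), although none passed. Untreated pig 2 and low-dose pig 1 carry neighbouring animal numbers in the labels, and counts without this pair are given where they differ. Untreated pigs 1 and 3 also carry neighbouring numbers, as do the 2 high-dose animals, so the high dose and whatever such animals share cannot be told apart. Animals are numbered within each group, and a shared number pairs nothing across groups.

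None of the interferon and antigen presentation genes passed the test at either dose of GGF2. At the high dose against untreated, 0 of 45 genes had a limma adjusted p under 0.05, where the share over all probe sets was also 0%, and 0 of 45 had an unadjusted p under 0.05, where the share over all probe sets was 7.97%. The genes were higher in 15 cases and lower in 30, with a median change of -0.07, while 53.3% of all probe sets were higher, 46.7% were lower and the median over them was 0.02. Groups did not overlap for 5 of 45 genes (11.1%), against 26.6% of all probe sets: IFI35 and SLA-7 lay higher (14.7% of all probe sets did), and IRF2, IRF8 and TAPBP lay lower (12% of all). For IFI35 the nearest untreated and high-dose values were both 6.67, and for SLA-7 both were 4.71. Those separations are smaller than the printed precision. The count of 15 rested on single animals: it was 28 without high-dose pig 1, 28 without untreated pig 2 and 28 without the pair of neighbouring numbers.

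The low dose against untreated gave 20 genes higher and 25 lower, with a median change of -0.03. Over all probe sets 52% were higher, 48% were lower and the median was 0.01. Of the 45 genes, 0 passed in limma after adjustment, as for all probe sets (0%), and 0 had an unadjusted p under 0.05, against 4.5% of all probe sets. SLA-2 was the 1 gene whose groups did not overlap, against 9.1% of all probe sets, and it lay lower (3.87% of all). Without the pair of neighbouring numbers 31 genes were higher, and without low-dose pig 2 or without untreated pig 3 the count was 13. High dose against low dose gave 25 genes higher (51.1% of all probe sets) and 20 lower (48.9%), with 0 passing (0.025% of all probe sets passed), 0 with an unadjusted p under 0.05 (10.2% of all) and 2, OAS1 and STAT6, without overlap and lower (26.2% of all did not overlap, 13% of all lying lower). The count of 25 became 12 without high-dose pig 2. With both doses pooled against untreated, 13 genes were higher (53.3% of all) and 32 lower (46.7% of all), 0 passed in limma (0% of all), 0 had an unadjusted p under 0.05 (4.83% of all) and 0 were without overlap (2.75% of all); without high-dose pig 1 there were 28 higher, without untreated pig 2 26, without low-dose pig 3 21 and without the neighbouring pair 33.

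**Figure D1:**
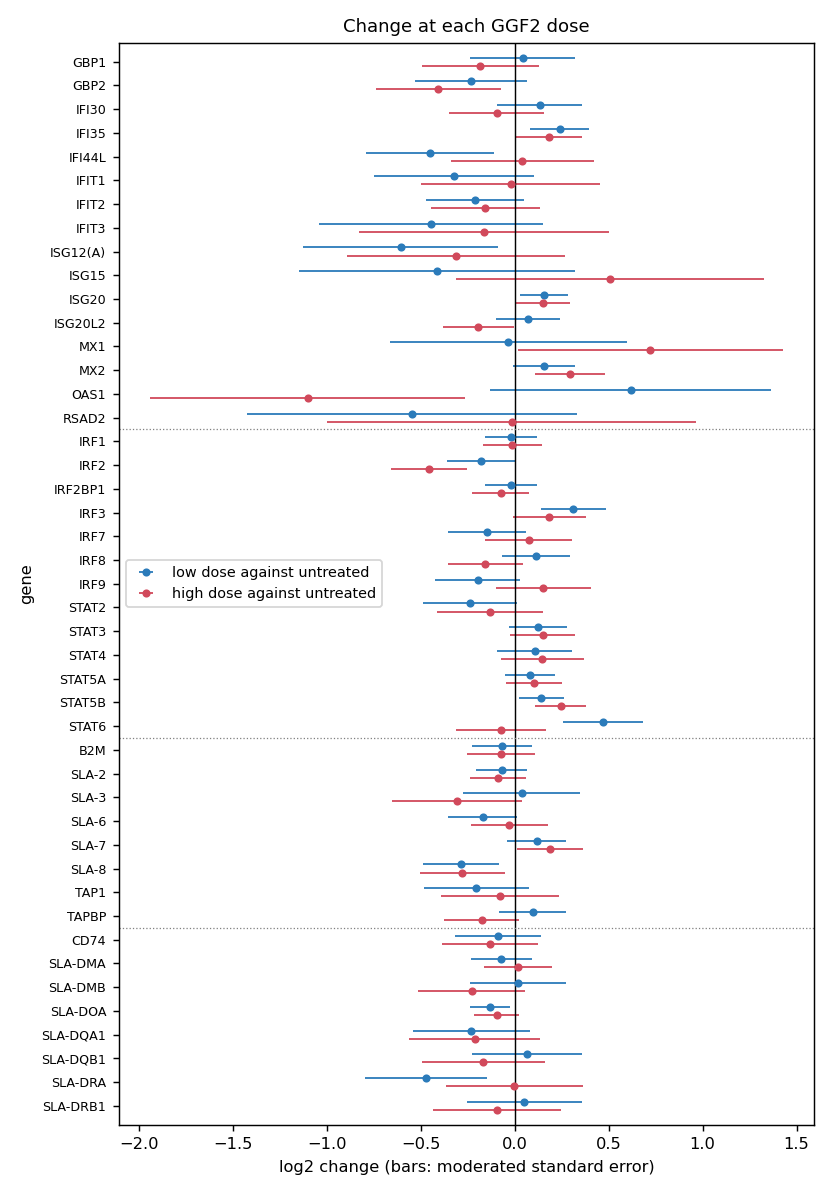
Log2 change of each of the 45 genes at the low dose (blue) and the high dose (red) against untreated animals, with bars of 1 moderated standard error; dotted lines part effectors, IRF and STAT genes, MHC class I and MHC class II. The lowest estimate is OAS1 at the high dose, at -1.10, and the widest bars belong to RSAD2, OAS1, ISG15, MX1 and IFIT3.

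The effectors varied most between animals of the same group. Their median within-group standard deviation was 0.49 log2 units, against 0.31 for the 45 genes and 0.17 for all probe sets. Class II genes followed at 0.41, class I genes stood at 0.25 and IRF and STAT genes at 0.25. Of the 16 effectors, 11 lay above the 90th percentile of all probe sets for within-group spread, and 6 of these lay above the 99th: RSAD2, ISG15, OAS1, MX1, IFIT3 and ISG12(A).

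RSAD2 encodes viperin, an enzyme that makes a chain-terminating nucleotide against viral polymerases. It measured 6.94, 8.18 and 7.93 in the untreated animals, 6.07, 8.04 and 7.31 at the low dose, and 5.81 and 9.53 at the high dose. The lowest and the highest of the 8 values were thus the 2 high-dose animals, which differ by 3.71 log2 units or 13.1-fold. The mean at the high dose differed from untreated by -0.02 ± 0.98 (SE; 95% interval -2.25 to 2.23, limma adjusted p = 0.998). Without high-dose pig 1 that change was 1.84 and without high-dose pig 2 it was -1.87, so its sign turned with the animal kept. Of 3 control probe sets also annotated to RSAD2 and left out of the test, the 3' one measured 4.59, 5.57 and 5.82 in untreated animals, 3.82, 5.56 and 4.89 at the low dose, and 4.14 and 7.34 at the high dose. High-dose pig 2 is again the highest there. The 5' one lay between 5.43 and 5.86, with 5.73 and 5.86 in the high-dose animals, so it did not show this split, and the middle one was under the lower quartile on all 8 arrays.

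ISG15, a ubiquitin-like protein that is attached to other proteins during an interferon response, measured 8.03, 9.57 and 8.81 in untreated animals. It was 8.09, 9.61 and 7.46 at the low dose, and 8.07 and 10.55 at the high dose. All 3 groups hold 1 animal above 9.5 and at least 1 near 8, and the ranges of all groups overlap. The change at the high dose was 0.51 ± 0.82 (SE; limma adjusted p = 0.935), ranging from -0.73 to 1.75 as single animals were left out.

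MX1, a dynamin-like GTPase that traps viral particles, measured 6.05, 7.20 and 6.37 in untreated animals, 6.26, 7.62 and 5.65 at the low dose and 6.21 and 8.32 at the high dose. Its highest value in each group was again in the animal numbered 2. The change at the high dose was 0.72 ± 0.71 (SE; limma adjusted p = 0.866). MX2, its paralog, spread much less, with 5.04, 5.48 and 5.14 in untreated animals, 5.42, 5.50 and 5.21 at the low dose, and 5.29 and 5.74 at the high dose. It differed from untreated by 0.30 ± 0.19 (SE; limma adjusted p = 0.757), and the groups overlap.

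IFIT proteins bind viral RNA and block its translation. IFIT3 measured 6.92, 7.79 and 7.46 in untreated animals, 6.31, 7.91 and 6.62 at the low dose, and 6.10 and 8.36 at the high dose. IFIT1 had its 8 values between 7.62 and 9.31 and IFIT2 between 6.36 and 7.26. On the probe sets that stand for them, high-dose pig 2 was the highest of the 8 animals in all 3 IFIT genes. There high-dose pig 1 was the lowest in IFIT1 and IFIT3. The second brightest probe sets of IFIT1 and IFIT2 were also highest in high-dose pig 2, although that of IFIT1 was lowest in low-dose pig 1. Their dimmest probe sets differed: that of IFIT1 was highest in low-dose pig 2, at 6.70, and that of IFIT2 in low-dose pig 1, at 5.04. ISG12(A), a small membrane protein induced by type I interferon, had its lowest and highest values in the 2 high-dose animals: 9.90, 10.43 and 9.95 in untreated animals, 9.35, 10.32 and 8.80 at the low dose, and 8.79 and 10.78 at the high dose. IFI44L, an interferon-induced protein, lay between 8.48 and 9.88 with its highest value in high-dose pig 2. All 3 of its probe sets were highest in that animal, but their changes differed in size. Low dose against untreated gave -0.645 to -0.047 and high against low dose 0.082 to 0.865 over the 3, and none passed.

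OAS1, which makes the oligoadenylates that activate RNase L, stood apart from the other effectors. It measured 5.75, 7.16 and 4.08 in untreated animals, 5.83, 7.37 and 5.66 at the low dose, and 5.07 and 4.06 at the high dose. Untreated pig 2 and low-dose pig 2 were high, as for ISG15, but high-dose pig 2 was the lowest of all. High dose against low dose gave -1.72 ± 0.84 (SE; limma adjusted p = 0.544), with no overlap between these groups, and untreated animals spanned both.

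Guanylate-binding proteins are GTPases that respond above all to interferon gamma. GBP1 lay between 8.38 and 9.45 and GBP2 between 5.72 and 6.95, and for both the lowest animal was high-dose pig 1. Their changes at the high dose were -0.18 ± 0.31 and -0.41 ± 0.33 (SE), with limma adjusted p of 0.943 and 0.83. The other GBP1 probe sets changed by -0.17 and 0.02. IFI35, which binds other interferon-induced proteins, measured 6.64, 6.67 and 6.48 in untreated animals, 6.71, 7.17 and 6.63 at the low dose, and 6.67 and 6.88 at the high dose; low dose against untreated gave 0.24 ± 0.16 (SE; limma adjusted p = 0.998). ISG20L2 measured 5.41, 5.26 and 5.05 in untreated animals, 5.35, 5.60 and 4.99 at the low dose and 5.05 in both high-dose animals, and high against low dose gave -0.26 ± 0.19 (SE; limma adjusted p = 0.686). These 2 genes varied little beside RSAD2 or ISG15. IFI30, a lysosomal thiol reductase, lay between 6.15 and 7.04, and ISG20, an exonuclease, between 3.73 and 4.19, little above the lower quartile.

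**Figure D2:**
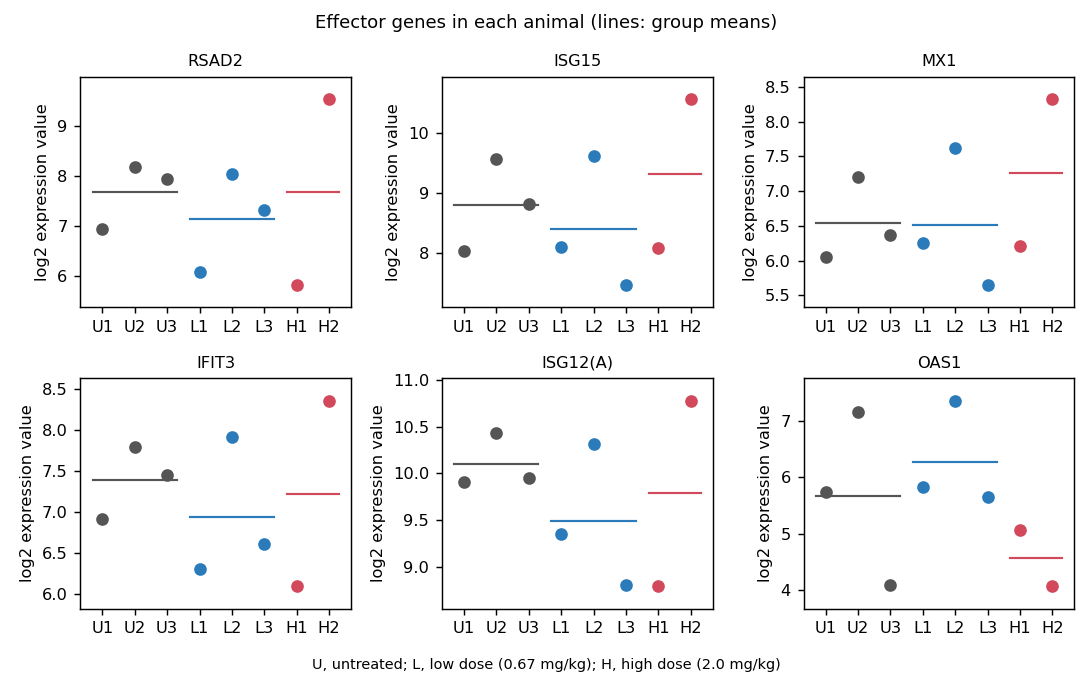
Log2 expression value of 6 effectors in each animal (U untreated, L low dose, H high dose; lines mark group means), on an axis of its own for each gene. In RSAD2, ISG15, MX1, IFIT3 and ISG12(A) the 2 high-dose points lie far apart, by 1.99 to 3.71, while for OAS1 they lie at 5.07 and 4.06 with the second animal lower.

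The split between the 2 high-dose animals ran through most effectors. High-dose pig 2 exceeded high-dose pig 1 in 14 of 16 effectors, with a median gap of 0.94 and a range from -1.005 (OAS1) to 3.71 (RSAD2). For all probe sets the median gap was 0.00 and its median size 0.16. In 12 of 16 effectors (75%) this gap was larger than the high-dose change from untreated, compared with 55.6% of all probe sets. The median change of the effectors at the high dose was -0.06, with 6 higher and 10 lower. It was 0.40 without high-dose pig 1 and -0.55 without high-dose pig 2. At the low dose the median was -0.12, with 7 higher and 9 lower, and it ran from -0.41 without low-dose pig 2 to 0.10 without low-dose pig 3.

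The mean of the effectors in each animal, after centring each gene on its mean over the arrays, was -0.22, 0.44 and -0.06 in untreated animals, -0.31, 0.56 and -0.42 at the low dose, and -0.54 and 0.56 at the high dose. Each group thus held 1 animal well above 0 and the remaining animals below it. High-dose pig 2 was the highest of the 8 animals for 9 of 16 effectors and low-dose pig 2 for 5. Over all 45 genes, high-dose pig 2 was highest for 15 (33.3%, against 11.8% of all probe sets), low-dose pig 2 for 13 (28.9%, against 10.2%) and untreated pig 2 for 7 (15.6%, against 9.89%).

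**Figure D3:**
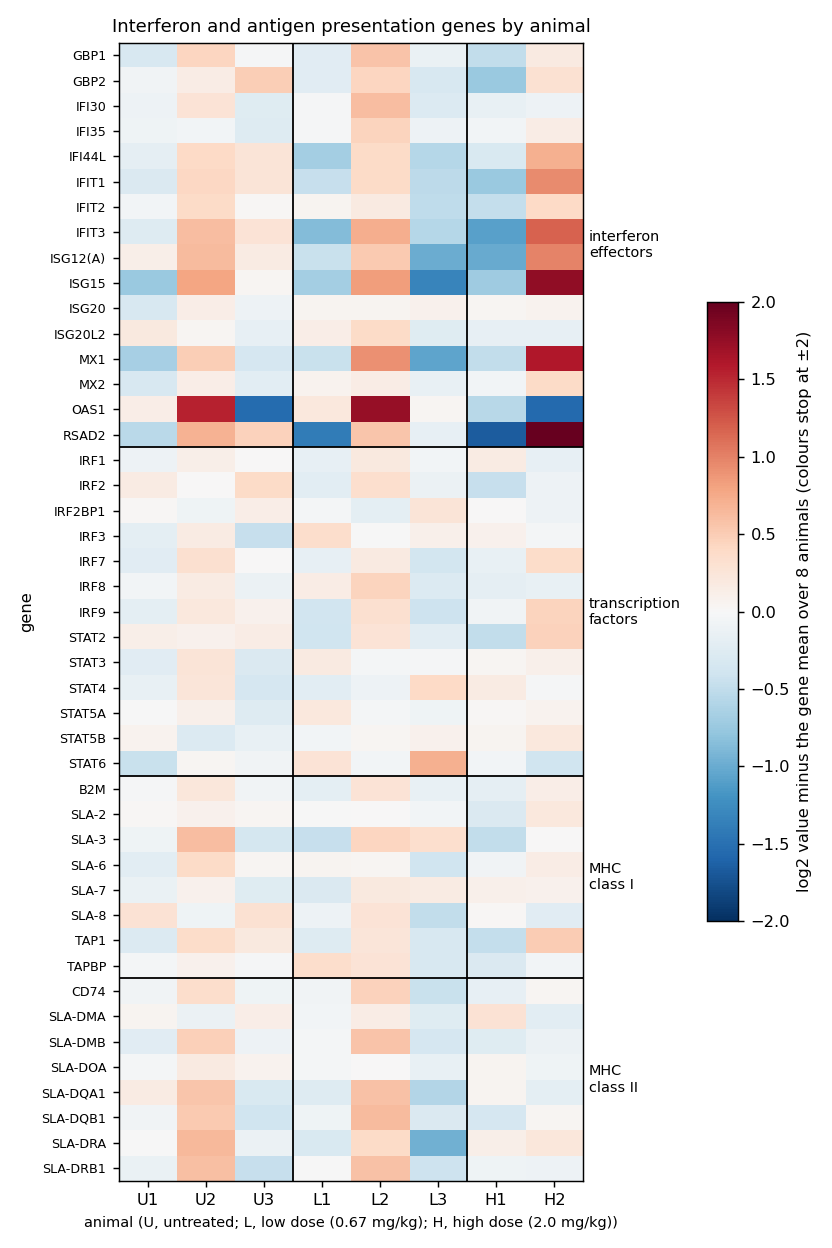
Log2 value of each of the 45 genes in each animal minus the gene's mean over the 8 animals (red higher, blue lower; colours stop at 2 units either way), ordered by role. Untreated animal U2 and low-dose animal L2 are above the mean for most effectors and class II genes, whereas high-dose animal H2 is above it for effectors but close to it for class II genes.

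Other interferon targets and sensors, from a list that shares no gene with the 45, split between animals in a similar way. DDX58, the RIG-I sensor of viral RNA, measured 6.26, 6.77 and 6.18 in untreated animals, 5.29, 6.86 and 5.70 at the low dose, and 5.88 and 7.73 at the high dose. XAF1, a pro-apoptotic interferon target, measured 5.83, 6.78 and 6.26, then 5.79, 6.69 and 5.70, then 5.33 and 7.69 in the same order of groups. Both were highest in high-dose pig 2, as were 10 of the 20 measured genes of that list (45 listed), and 16 of 20 were higher in high-dose pig 2 than in high-dose pig 1. In that list 13 genes were higher and 7 lower at the high dose, with a median change of 0.08 and 0 passing in limma (0 with an unadjusted p under 0.05, against 7.97% of all probe sets). USP18, which removes ISG15 from proteins, was at 5.25, 6.01 and 5.57 in untreated animals, 4.70, 6.07 and 4.97 at the low dose and 5.36 and 6.84 at the high dose.

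Of interferon ligands, receptors, kinases and their inhibitors, 15 of 18 listed genes were measured, and at the high dose 7 were higher and 8 lower, with 0 passing in limma and 1 (TYK2) with an unadjusted p under 0.05, a share of 6.7% against 7.97% of all probe sets. TYK2, a kinase at the type I receptor, measured 7.67, 7.54 and 7.66 in untreated animals, 7.70, 7.79 and 7.74 at the low dose, and 7.31 and 7.23 at the high dose. It differed from untreated by -0.35 ± 0.11 (SE; limma adjusted p = 0.449). The receptor chain IFNAR1 changed by 0.01 ± 0.12 and IFNGR1, the interferon gamma receptor chain, by -0.33 ± 0.24 (SE), neither passing. The interferon genes IFNB1 and IFNG had values from 2.94 to 3.44 and from 3.30 to 3.49, all under the lower quartile, so their levels cannot be ordered. IFNA1, a further interferon gene, lay above the lower quartile, between 4.61 and 4.91. It changed by 0.06 ± 0.13 at the high dose (SE; limma adjusted p = 0.958).

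Among the 13 IRF and STAT genes, 7 were higher and 6 lower at the high dose, with a median change of 0.08, and the same counts and a median of 0.08 held at the low dose. With single animals left out the high-dose median ran from -0.06 (without untreated pig 1) to 0.17 (without untreated pig 2), and the low-dose median from -0.02 (without untreated pig 3) to 0.08. IRF2, which competes with IRF1 at interferon target promoters, measured 8.27, 8.11 and 8.49 in untreated animals, 7.89, 8.45 and 8.00 at the low dose, and 7.66 and 8.02 at the high dose. Both high-dose animals lay below the untreated ones, by -0.46 ± 0.20 on the mean (SE; 95% interval -0.92 to 0.00, unadjusted p = 0.0517, limma adjusted p = 0.626). The other probe sets of IRF2 changed by 0.33 and -0.16, so the 3 disagree in sign. IRF1 itself, an activator induced by interferon gamma, changed by -0.01 ± 0.16 (SE).

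STAT6, the factor downstream of interleukin-4, measured 5.03, 5.52 and 5.42 in untreated animals, 5.76, 5.43 and 6.19 at the low dose, and 5.42 and 5.08 at the high dose. The low-dose animals were the highest as a group, and the high-dose animals lay below all of them. High against low dose gave -0.54 ± 0.24 (SE; unadjusted p = 0.0521, limma adjusted p = 0.497), and low dose against untreated gave 0.47 ± 0.21 (unadjusted p = 0.0573, limma adjusted p = 0.998). STAT5B, activated by growth hormone and other cytokines, measured 8.00, 7.67 and 7.79 in untreated animals, 7.89, 7.98 and 8.02 at the low dose, and 7.98 and 8.15 at the high dose. Its change at the high dose was 0.25 ± 0.13 (SE; limma adjusted p = 0.71), while the other STAT5B probe set changed by 0.02.

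IRF3, which is activated by the sensors of viral nucleic acid, measured 6.86, 7.22 and 6.58 in untreated animals, 7.40, 7.05 and 7.15 at the low dose, and 7.13 and 7.01 at the high dose. The groups overlap, and low dose against untreated gave 0.31 ± 0.17 (SE; limma adjusted p = 0.998). IRF7, IRF9 and STAT2, which act in the type I response and are themselves its targets, were each highest in high-dose pig 2, at 6.46, 6.70 and 7.44. High-dose pig 1 measured 5.93, 6.20 and 6.49 for the same genes. Their changes at the high dose were 0.08 ± 0.23, 0.15 ± 0.25 and -0.13 ± 0.28 (SE), and none passed. IRF8, a factor of macrophages and dendritic cells, measured 6.21, 6.44 and 6.16 in untreated animals, 6.42, 6.72 and 6.004 at the low dose, and 6.10 and 6.13 at the high dose. STAT3, STAT4 and STAT5A changed by 0.15, 0.15 and 0.11 at the high dose, with STAT4 little above the lower quartile at a mean of 3.94.

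**Figure D4:**
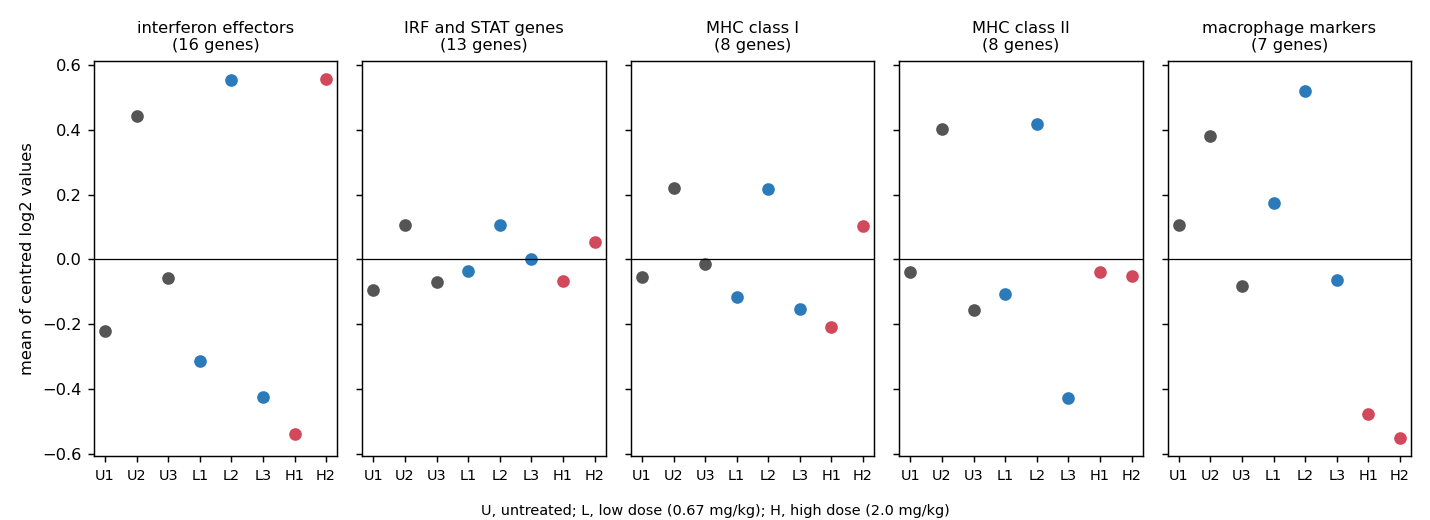
Mean of the centred log2 values in each animal for the effectors, the IRF and STAT genes, MHC class I, MHC class II and the macrophage markers, on a shared axis (U untreated, L low dose, H high dose). The high-dose animals are at -0.54 and 0.56 for effectors and at -0.04 and -0.05 for class II genes, and both are the lowest for macrophage markers.

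MHC class I genes had small median changes at both doses. At the high dose 1 was higher and 7 lower, with a median change of -0.08, and at the low dose 3 were higher and 5 lower, with a median of -0.07. The high-dose median was 0.08 without high-dose pig 1, -0.26 without high-dose pig 2, -0.18 without untreated pig 1 and -0.00 without untreated pig 2. The low-dose median ranged from -0.17 without low-dose pig 2 to 0.00 without untreated pig 2. Class I genes of the pig are related in sequence, and a probe set that was left out is annotated to both SLA-2 and SLA-3. Whether the probe sets used tell the transcripts apart was not tested. The assignment of a value to SLA-2, SLA-3, SLA-6, SLA-7 or SLA-8 is therefore uncertain. SLA-2, a classical class I heavy chain, measured 10.88, 10.94 and 10.90 in untreated animals, 10.85, 10.86 and 10.81 at the low dose and 10.57 and 11.07 at the high dose. Its low-dose values all lay below the untreated ones, by -0.07 ± 0.13 on the mean (SE; limma adjusted p = 0.998). SLA-3, the other classical chain measured, was at 10.79, 11.49 and 10.51 in untreated animals, 10.40, 11.29 and 11.20 at the low dose, and 10.37 and 10.88 at the high dose. Here the groups overlap, and high against low dose gave -0.34 ± 0.35 (SE; limma adjusted p = 0.796), from -0.62 without low-dose pig 1 to -0.09 without high-dose pig 1.

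SLA-8, a non-classical chain, was at 9.17, 8.79 and 9.18 in untreated animals, 8.77, 9.14 and 8.38 at the low dose, and 8.89 and 8.65 at the high dose. Both doses together differed from untreated by -0.28 ± 0.18 (SE; limma adjusted p = 0.956), with overlap. SLA-7 was at 4.49, 4.71 and 4.38 in untreated animals, 4.33, 4.82 and 4.78 at the low dose, and 4.72 and 4.71 at the high dose, and both doses together gave 0.15 ± 0.14 (SE; limma adjusted p = 0.973). Its values are low on this array. SLA-6 lay between 7.45 and 8.21 and changed by -0.03 ± 0.20 at the high dose (SE).

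TAP1, a subunit of the transporter that brings peptides to class I molecules, measured 7.54, 8.19 and 8.01 in untreated animals, 7.56, 8.07 and 7.50 at the low dose, and 7.35 and 8.33 at the high dose. It had its lowest and highest values in the 2 high-dose animals, as did RSAD2, and changed by -0.08 ± 0.31 (SE; limma adjusted p = 0.979). The 3 TAP1 probe sets changed by -0.08 to 0.05 at the high dose, so they disagree in sign. TAPBP, tapasin, which tethers class I molecules to the transporter, measured 6.98, 7.10 and 6.98 in untreated animals, 7.36, 7.29 and 6.70 at the low dose, and 6.73 and 6.96 at the high dose. The high-dose animals lay below the untreated ones but not below low-dose pig 3, and high against low dose gave -0.27 ± 0.20 (SE; limma adjusted p = 0.698). Of 18 listed genes of the proteasome and of peptide loading, 11 were measured, and at the high dose 8 were higher and 3 lower, with a median change of 0.19. In limma 0 passed and 2 had an unadjusted p under 0.05 (18.2%, against 7.97% of all probe sets): the proteasome activator PSME1 at 0.35 ± 0.14 and the chaperone HSPA5 at 0.43 ± 0.17 (SE), with adjusted p of 0.564 and 0.574.

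B2M, the light chain of all class I molecules, is annotated to 9 probe sets, and these disagree. They are lettered a to i from the brightest to the dimmest. The brightest, a, measured 13.14, 13.38 and 13.09 in untreated animals, 12.96, 13.43 and 13.01 at the low dose, and 12.98 and 13.29 at the high dose. These groups overlap, and the change at the high dose was -0.07 ± 0.18 (SE; 95% interval -0.48 to 0.34, limma adjusted p = 0.965). Probe set e measured 10.05, 8.88 and 9.67 in untreated animals, 8.90, 9.999 and 9.62 at the low dose, and 6.36 and 7.59 at the high dose. Both high-dose animals lay below every other animal. Probe set e does not stand for B2M in the counts over genes, which use the brightest. High against low dose gave -2.53 (limma unadjusted p = 0.000482, adjusted p = 0.169). From untreated, the high-dose change was -2.56 ± 0.46 (SE; 95% interval -3.61 to -1.503, limma unadjusted p = 0.000446, adjusted p = 0.202). That change ranged from -3.17 to -1.95 as single animals were left out, and its adjusted p from 0.0552 to 1 over the alternatives.

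The remaining B2M probe sets changed by -0.79 to 0.36 at the high dose. Probe set g measured 8.81, 8.46 and 7.84 in untreated animals, 7.89, 8.29 and 7.59 at the low dose and 7.50 and 7.67 at the high dose. Its high-dose change was -0.79 ± 0.29 (SE; limma unadjusted p = 0.0241, adjusted p = 0.535) without overlap with untreated. Probe set h measured 7.05, 7.28 and 7.25, then 7.82, 7.15 and 7.28, then 7.72 and 7.39 in the same order of groups, a change of 0.36 at the high dose (limma adjusted p = 0.727). So 1 of these lay lower and 1 higher at the high dose. Probe set d measured 10.84, 10.93 and 11.20 in untreated animals, 11.66, 11.48 and 11.36 at the low dose, and 10.95 and 11.04 at the high dose. Only for it did the low-dose animals lie above both other groups. Low dose against untreated gave 0.51 (limma unadjusted p = 0.00425, adjusted p = 0.998). High against low dose gave -0.51 (limma unadjusted p = 0.00826, adjusted p = 0.313).

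Probe set b measured 13.07, 12.98 and 12.93 in untreated animals, 12.86, 12.89 and 12.88 at the low dose, and 12.94 and 12.72 at the high dose, a change of -0.17 (limma adjusted p = 0.785). Probe set c measured 11.54, 12.08 and 11.72, then 11.62, 12.25 and 11.72, then 11.24 and 11.87, a change of -0.23 (limma adjusted p = 0.894). In the latter, as in the brightest probe set, the animal numbered 2 was the highest in each group. Probe set f ranged from 8.51 to 8.82 and probe set i from 6.02 to 6.35, with changes of 0.07 and -0.03 at the high dose (limma adjusted p of 0.954 and 0.98). All 9 carry the same B2M annotation, and which of them match the B2M transcript was not tested. The direction at the high dose of 5 of the 9, the brightest included, turned when single animals were left out.

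**Figure D5:**
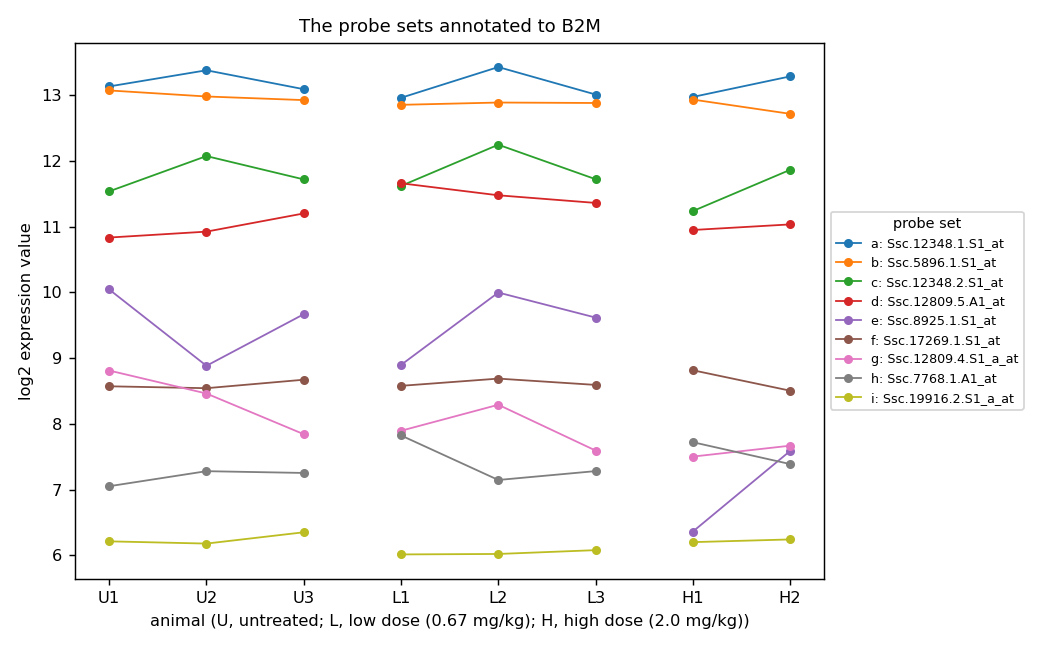
Log2 expression value of the 9 probe sets annotated to B2M in each animal (U untreated, L low dose, H high dose); lines join the values of a probe set within a group and imply no order of animals. The purple probe set, probe set e, is at 6.36 and 7.59 in the high-dose animals and at 8.88 or above in the others, while the brightest stays between 12.96 and 13.43.

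MHC class II genes varied between animals within each group. At the high dose 1 was higher and 7 lower, with a median change of -0.11, and at the low dose 3 were higher and 5 lower, with a median of -0.08. The high-dose median ranged from -0.25 without untreated pig 3 to 0.00 without untreated pig 2, and the low-dose median from -0.22 without low-dose pig 2 to 0.08 without low-dose pig 3. SLA-DRA, the alpha chain of SLA-DR, measured 8.03, 8.69 and 7.93 in untreated animals, 7.74, 8.42 and 7.08 at the low dose, and 8.16 and 8.27 at the high dose. It was lowest in low-dose pig 3 and highest in untreated pig 2. Low dose against untreated gave -0.47 ± 0.33 (SE; limma adjusted p = 0.998), -0.81 without low-dose pig 2 and -0.14 without low-dose pig 3, and at the high dose the change was -0.00 ± 0.36 (SE).

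SLA-DQA1, the alpha chain of SLA-DQ, measured 9.13, 9.52 and 8.66 in untreated animals, 8.70, 9.55 and 8.38 at the low dose, and 9.01 and 8.77 at the high dose. The groups overlap, and both doses together gave -0.22 ± 0.28 (SE; limma adjusted p = 0.98). SLA-DQB1 and SLA-DRB1, the beta chains, lay between 8.26 and 9.30 and between 8.15 and 9.22, with changes of -0.17 ± 0.33 and -0.09 ± 0.34 at the high dose (SE). The other SLA-DRB1 probe set changed by 0.26 there, so the sign differs. SLA-DMB, part of the SLA-DM complex that exchanges peptides on class II molecules, measured 7.20, 7.90 and 7.33 in untreated animals, 7.39, 8.00 and 7.09 at the low dose, and 7.18 and 7.31 at the high dose. Its high against low difference of -0.25 ± 0.28 (SE; limma adjusted p = 0.821) was -0.45 to 0.01 as single animals were left out. SLA-DOA, part of the complex that restrains SLA-DM, measured 4.43, 4.64 and 4.54, then 4.43, 4.47 and 4.32, then 4.51 and 4.37 in the same order of groups, and low dose against untreated gave -0.13 ± 0.11 (SE; limma adjusted p = 0.998). SLA-DMA changed by 0.02 ± 0.18 at the high dose (SE), and its other probe set by -0.24.

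CD74, the invariant chain that escorts class II molecules, measured 6.14, 6.55 and 6.12 in untreated animals, 6.13, 6.67 and 5.76 at the low dose, and 6.04 and 6.25 at the high dose. Untreated pig 2 and low-dose pig 2 were high here too. The class II mean per animal was -0.04, 0.40 and -0.16 in untreated animals, -0.11, 0.42 and -0.43 at the low dose, and -0.04 and -0.05 at the high dose. The 2 high-dose animals, far apart for the effectors, thus had similar class II means. Gene by gene, high-dose pig 2 was above high-dose pig 1 in 4 and below it in 4. These gaps ran from -0.49 to 0.36, with a median size of 0.17. Low-dose pig 2 was the highest animal for 4 of the 8 genes and untreated pig 2 for 3.

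Macrophages carry class II molecules, and their markers are given beside these values. The mean of the 7 macrophage markers was 0.10, 0.38 and -0.08 in untreated animals, 0.17, 0.52 and -0.06 at the low dose, and -0.48 and -0.55 at the high dose. MRC1, the mannose receptor, measured 7.79, 8.12 and 7.41 in untreated animals, 7.87, 8.21 and 7.33 at the low dose, and 6.79 and 6.41 at the high dose, a change of -1.17 ± 0.28 (SE; limma adjusted p = 0.383). Both high-dose animals were the lowest for these markers, while the class II mean in them lay within the range of untreated animals. Untreated pig 2 and low-dose pig 2 were the highest for both. In whole tissue, fewer cells of a type and less RNA per cell cannot be told apart, and the part of macrophages in the class II values was not tested. Of 6 listed B and plasma cell markers 2 were measured, with a median change of 0.27 at the high dose. CD79B changed by 0.23 ± 0.17 and JCHAIN by 0.31 ± 0.23 (SE), with limma adjusted p of 0.787 and 0.801. Of 6 listed dendritic cell markers only CD83 was measured, and it changed by 0.29 ± 0.38 (SE, limma adjusted p = 0.912). CTSS, the protease that trims the invariant chain in these cells, measured 10.36, 10.60 and 10.20 in untreated animals, 10.03, 10.64 and 10.13 at the low dose and 9.47 and 10.04 at the high dose, a change of -0.63 ± 0.23 (SE; unadjusted p = 0.0249, limma adjusted p = 0.537). In its list of class II transactivation and processing, 14 of 19 genes were measured (IFI30 is also among the 45), and 6 were higher and 8 lower at the high dose. In limma 0 passed and 1, CTSS, had an unadjusted p under 0.05, a share of 7.1% against 7.97% of all probe sets. CIITA, the class II transactivator, changed by -0.09 ± 0.12 (SE).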

How the data were processed

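Total RNA, extracted with Trizol and labelled with biotin per the labels' protocols, was measured on 8 arrays. The authors deposited log2 values for 24123 probe sets; RMA and Partek 6.6 are named in the submitters' processing notes, with no further settings stated there. RMA equalises the arrays' distributions, so a change shared by most genes would be removed. Arrays carry no read depth, and their number limits the precision.

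After leaving out 124 control probe sets, limma 3.58.1 in R 4.3.3 fitted 1 mean per group to all 8 arrays (5 residual and 3.50 prior degrees of freedom), with Benjamini-Hochberg adjustment over 23999 probe sets within each of 4 contrasts; an adjusted p under 0.05 counted as passing. Each array has its own pig number in the labels, so p-values reflect spread between animals. The fit was also run on simulated data with independent noise and large added changes. That setting does not show its power for smaller changes or for genes that vary together between animals. Symbols came from the platform annotation, where 10069 probe sets carry 1 symbol; 10 probe sets with several symbols, at least 1 of which fits the rule, were left out, and TAP2, SLA-1 and IFITM3 are not analysed here. Values are given for every B2M probe set and for the 4 genes of each role with the smallest unadjusted p; RSAD2, ISG15 and other genes outside that rule were added for their spread after their values were seen, and genes of the pathway and marker lists were named likewise. The genes and lists were chosen with earlier results of these data known. There were 10 lists of cell type and handling markers. Alternatives were an intensity trend, a robust prior, array weights, median centring, renewed quantile normalization, a filter on dim probe sets, fits of only the groups compared, averaging the probe sets of a gene, a looser threshold and leaving out animals.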

Additional observations from a re-analysis of the deposited data

How the results depend on the processing

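The count of the 45 genes passing stayed at 0 in every contrast under every alternative run. Over all probe sets, the count passing at the high dose against untreated was 0 and became 13 with array weights, 4 with an intensity trend, 8 when a gene's probe sets were averaged, 3 with median centring, 2 with only the groups compared, 9 with renewed quantile normalization, 7 with a robust prior, 10 at an adjusted p under 0.1, 55 without the 2 animals of neighbouring numbers, and 0 to 19 as single animals were left out. For low dose against untreated and for both doses it was 1 without that pair. For high against low dose it was 6 and became 10 with array weights, 1 with dim probe sets left out, 0 with only the groups compared, 12 without the pair, 14 at an adjusted p under 0.1, and 0 to 7 with single animals left out. Genes higher numbered 28, 31 and 33 without the pair (high, low and both doses against untreated) and, for both doses, 21 with array weights. With single animals left out they numbered 12 to 28 at the high dose, 13 to 24 at the low dose, 12 to 31 for high against low and 12 to 28 for both doses.

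Without the pair, the direction turned for SLA-DQA1 (both doses, 0.03) and, at the high dose, for B2M probe set a (0.017) and probe set d (-0.026), RSAD2 (0.23) and IFIT3 (0.038). Probe set d was at -0.01 with array weights and -0.069 with renewed quantile normalization, probe set i at 0.012 with the latter, and RSAD2 at 0.061 with array weights and 0.003 with median centring. With single animals left out, the high-dose change ranged from -0.228 to 0.085 for B2M probe set a, -0.54 to 0.088 for probe set c, -0.071 to 0.112 for probe set d, -0.091 to 0.22 for probe set f, -0.06 to 0.026 for probe set i, -1.87 to 1.84 for RSAD2, -0.73 to 1.75 for ISG15, -0.33 to 1.78 for MX1, -1.30 to 0.97 for IFIT3 and -1.30 to 0.68 for ISG12(A), and high against low dose from -0.451 to 0.006 for SLA-DMB. The cause was not tested. Leaving out 1 high-dose animal leaves 1, which is then assumed to vary like the other groups. No paired analysis was possible because each animal belongs to 1 group and the labels name no pairs across groups.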
